A study of Homo sapiens with 4 samples.

Results

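Mitochondrial ribosomal protein genes were taken as the protein-coding genes whose symbol is MRPL or MRPS followed by a digit, and 78 of the 58302 genes listed in each library met this rule. By subunit, 51 of them code for proteins of the large subunit of the mitochondrial ribosome and 26 for proteins of the small subunit. The remaining gene, MRPS36, carries a ribosomal name but its product is now placed in the oxoglutarate dehydrogenase complex. The libraries were made from polyadenylated RNA of HepG2, a human hepatocellular carcinoma cell line labelled wild type. The cells were given melatonin at 1 mM or DMSO, and RNA was taken after 24 h and after 48 h, which gave 1 library for each of the 4 conditions. No condition was replicated, so no spread between cultures could be measured and no p-value is given. Intervals in brackets are 95% intervals of the counted reads and cover counting error only.

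The mitochondrial ribosome translates the mRNAs of the mitochondrial genome, all 13 of which code for subunits of the respiratory chain and ATP synthase. Its rRNAs, MT-RNR1 in the small subunit and MT-RNR2 in the large subunit, are copied from mitochondrial DNA, while every one of its proteins is coded in the nucleus, made in the cytoplasm and imported. Some of these proteins descend from those of the bacterial ribosome, and the others took up places that the bacterial ribosome does not have. Among the members, 30 large and 16 small subunit genes have a bacterial counterpart, and 21 large and 10 small subunit genes are specific to mitochondria. MRPS30 and MRPS18A belong to the large subunit despite their names. Liver cells are rich in mitochondria, and nuclear genes for mitochondrial proteins are known targets of the transcription factors NRF1, GABP (an ETS factor) and YY1.

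RefSeq on GRCh38.p14 held a promoter window of 300 bases (250 before the start and 50 after it) for 69 of the 78 genes. The windows were searched on both strands for short motifs. The ETS motif of GABP, CCGGAAG, was present in 29 of the 69 windows (42.0%), against 14.2% of the windows of 15843 protein-coding genes. The YY1 core, AAGATGGC, was present in 20 (29.0%), against 3.91%. The NRF1 core, GCGCATGC, was present in 6 (8.70%), against 4.26%. Other motifs stood closer to the general share or below it. The E-box CACGTG was in 8.70% against 8.88%, the GC box GGGCGG in 60.9% against 58.5%, CCAAT in 29.0% against 36.4% and TATAAA in 2.90% against 9.63%. The windows of the members had a median GC content of 60.3%, and those of all genes had one of 62.7%. MRPL10, MRPL13, MRPL15, MRPL2, MRPL21, MRPL23, MRPL35, MRPS28 and MRPS36 had no window matched.

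The 200 bases before the start are shown for 5 members that represent these motifs, written 5′ to 3′ on the strand of the gene with each match of the NRF1, ETS and YY1 motifs in capitals. Matches of the other motifs, such as the GC box, are not marked. MRPL17 had the largest log2 fold change with melatonin at 48 h, MRPL53 the lowest, MRPS18B was lower with melatonin at both times, MRPS34 is among the 5 members of highest level, and MRPL52 carries more than 1 kind of motif. These 5 were chosen after their values were seen.
MRPL17, chr11:6683341-6683540, minus strand: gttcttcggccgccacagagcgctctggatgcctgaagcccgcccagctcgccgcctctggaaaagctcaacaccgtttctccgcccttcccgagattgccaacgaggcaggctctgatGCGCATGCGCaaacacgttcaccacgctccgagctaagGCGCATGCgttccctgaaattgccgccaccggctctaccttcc
MRPS18B, chr6:30617640-30617839, plus strand: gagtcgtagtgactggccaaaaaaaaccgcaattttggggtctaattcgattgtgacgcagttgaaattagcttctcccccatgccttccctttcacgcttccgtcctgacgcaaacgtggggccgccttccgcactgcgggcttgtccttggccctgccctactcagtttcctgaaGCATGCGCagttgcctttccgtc
MRPL53, chr2:74472681-74472880, minus strand: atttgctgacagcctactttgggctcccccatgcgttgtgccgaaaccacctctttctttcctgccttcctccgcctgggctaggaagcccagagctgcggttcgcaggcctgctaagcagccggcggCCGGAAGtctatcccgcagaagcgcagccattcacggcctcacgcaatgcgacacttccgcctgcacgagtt
MRPS34, chr16:1773135-1773334, minus strand: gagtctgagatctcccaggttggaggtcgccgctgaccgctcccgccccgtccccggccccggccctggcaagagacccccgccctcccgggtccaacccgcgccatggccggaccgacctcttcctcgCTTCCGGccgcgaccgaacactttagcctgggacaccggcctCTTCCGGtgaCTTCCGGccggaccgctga
MRPL52, chr14:22829687-22829886, plus strand: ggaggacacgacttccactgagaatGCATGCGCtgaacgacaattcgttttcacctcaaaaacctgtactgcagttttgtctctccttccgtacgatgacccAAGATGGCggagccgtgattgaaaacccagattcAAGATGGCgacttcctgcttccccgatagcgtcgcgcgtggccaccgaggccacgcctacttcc
MRPL17 holds the NRF1 core at -81, -79 and -43 from the start, the first pair being the same palindrome read on either strand. MRPS18B holds it at -23. MRPL53 has an ETS motif at -72, and MRPS34 has 3, at -71, -29 and -19. MRPL52 has an NRF1 core at -175 and YY1 cores at -98 and -64. Positions are those of the first letter of the match, counted from the RefSeq start. Matches outside these 200 bases, such as a YY1 core of MRPS18B and an ETS motif of MRPL52, are not shown. A match is a run of letters and not a measured binding site.

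The reads on genes numbered 21616676 to 23086025 per library, of which the members took 57021 to 64391. Albumin, AFP, APOA1, APOB, TF, TTR, SERPINA1 and HNF4A, which mark hepatocytes and hepatoblasts, were all expressed, the lowest being HNF4A at 34.9 to 59.5 FPKM and TTR at 41.9 to 256. Of the leukocyte, endothelial and stromal markers, CD3E and COL3A1 were listed at 0 and the others lay below 1 FPKM, except LYZ at 729 to 1069 and PDGFRB at 0.774 to 4.33. The share of reads on genes of the mitochondrial genome was 19.96% (DMSO) and 16.6% (melatonin) after 24 h, and 9.77% and 11.9% after 48 h. In bulk RNA, fewer cells that express a gene and less of its RNA per cell cannot be told apart.

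All members but 1 were expressed. FPKM (fragments per kilobase of gene, scaled to library size, as deposited) ranged over the members from 0.0755 to 90.5, with medians of 13.0 (DMSO) and 13.2 (melatonin) at 24 h and of 11.1 and 12.3 at 48 h. Summed over the members, the FPKM was 1374 and 1397 at 24 h and 1192 and 1242 at 48 h, in the same order. The large subunit genes summed to 2.22 to 2.26 times the small subunit genes in every library. For comparison, the FPKM of the 82 cytoplasmic ribosomal protein genes summed to between 16896 and 20050.

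The 5 members of highest mean FPKM were MRPL14, MRPL37, MRPS26, MRPL45 and MRPS34. MRPL14, a protein of the subunit interface, had an FPKM of 85.8 (DMSO) and 90.5 (melatonin) at 24 h and of 84.4 and 73.6 at 48 h. MRPL37, which is specific to mitochondria, stood at 67.4 and 70.8 at 24 h and at 41.5 and 49.7 at 48 h. MRPL45, which lies at the exit of the peptide tunnel and meets the inner membrane, stood at 48.9 and 52.6, and then at 56.8 and 55.6. The level of MRPL14 was thus the highest of all members in each library, whereas MRPL37 and MRPL45 changed places between 24 h and 48 h. MRPS26 had 58.6, 63.7, 46.7 and 58.7 FPKM (DMSO and melatonin at 24 h, then DMSO and melatonin at 48 h, the order kept from here on). MRPS34 had 65.2, 57.1, 45.8 and 41.4 FPKM, so it was lower with melatonin than with DMSO at each time and lower at 48 h than at 24 h under each treatment. Reads of MRPL45 could be shared with its transcribed pseudogene MRPL45P2, which was listed at 3.74 to 4.67 FPKM, the largest of the 67 pseudogene rows named after members.

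At the lower end stood MRPL46, MRPS6, MRPS17, MRPL38 and MRPS24. MRPL46 had 2.36, 2.52, 2.78 and 2.74 FPKM, and its neighbour MRPS11, read from the opposite strand with a start 320 bases away, had 3.16, 2.85, 3.20 and 3.15. MRPS17, the counterpart of a bacterial protein of the small subunit, had 2.02, 1.67, 1.90 and 2.11 FPKM from 73 to 101 reads, and the intervals of its ratios in all 4 comparisons held 1. MRPL38, a large subunit protein specific to mitochondria, had 1.03, 1.41, 1.73 and 1.41 FPKM. In GENCODE 44, 94.3% of the MANE Select transcript of MRPL38 (the reference transcript of a gene) and 73.4% of that of MRPL46 overlap exons of another gene on the same strand, so their levels are uncertain.

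MRPS24, the counterpart of the bacterial protein at the mRNA entry of the small subunit, was the exception among the members. It had 0.104, 0.0755, 0.157 and 0.190 FPKM from 5, 4, 9 and 11 reads. These values are near the floor of 3 reads and were not compared further. The read-through gene URGCP-MRPS24 covers 90.9% of the MANE Select transcript of MRPS24 on the same strand, and it was listed at 0 in all libraries, so the level of MRPS24 is uncertain.

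**Figure D1:**
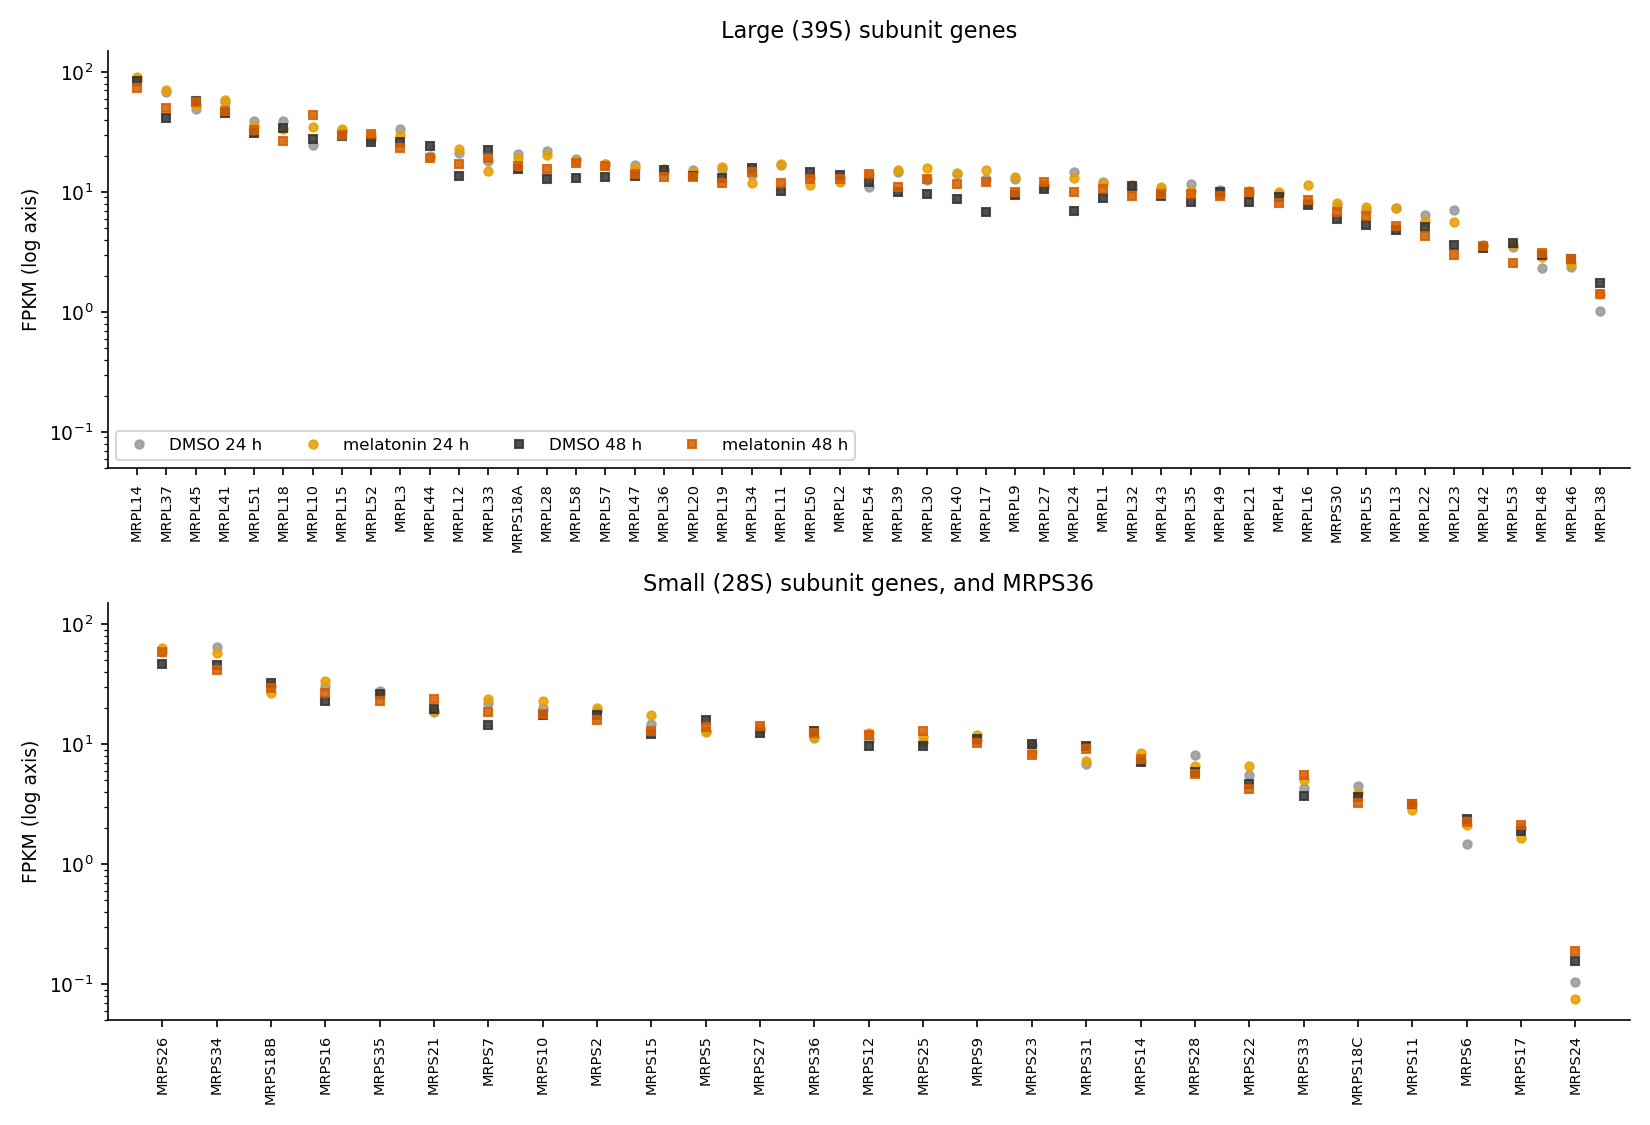
FPKM of the 78 mitochondrial ribosomal protein genes on a log axis, large subunit genes above and small subunit genes with MRPS36 below, ordered by mean FPKM. Each marker is 1 of the 4 libraries (circles 24 h, squares 48 h). The markers of a gene lie close together next to the range across genes, and MRPS24 stands alone at 0.0755 to 0.190 FPKM.

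The order of the members by level was much the same in the libraries. Spearman's rho over the 78 genes was 0.98 between the libraries of 24 h and 0.96 between those of 48 h, and the lowest value, 0.91, was between melatonin at 24 h and DMSO at 48 h. The points of such a correlation share gene length and sequence composition, and it is given as a description. Neighbours in the order were often not separated by their spread over the libraries, as for MRPS26 (46.7 to 63.7 FPKM) and MRPL45 (48.9 to 56.8 FPKM). The order did depend on the length used. The deposited lengths of the members, 959 to 16393 bp, are mostly longer than the MANE Select transcripts (shorter for MRPL15, MRPL17, MRPL19, MRPL30 and MRPL50), and with reads per kilobase of that transcript instead, rho with the deposited order was 0.73. MRPL41 and MRPL37 then ranked above MRPL14.

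The members also varied little across the libraries. The highest FPKM of a gene was a median of 1.34 times its lowest over the 77 members above 1 FPKM, and 1.45 times over 9479 protein-coding genes of the same range of FPKM. It reached 2-fold for 3 members (3.90%, against 16.3% of those genes), which were MRPL23 at 2.37, MRPL17 at 2.26 and MRPL24 at 2.1. All 3 are large subunit proteins with a bacterial counterpart that line or surround the exit of the peptide tunnel. MRPL45, also at the tunnel exit, reached only 1.16, and tunnel exit proteins were not compared as a group. MRPL42, specific to mitochondria, varied least, at 1.04.

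To ask what melatonin did to these transcripts, FPKM was compared as log2((melatonin FPKM + 1)/(DMSO FPKM + 1)) in genes of at least 1 FPKM in either library, which held for 77 members. At 24 h the members had a median log2 fold change of 0.04, and all 13582 genes tested had one of 0.02. The members ranged from -0.29 to 0.49, with 47 above 0 and 30 below. None reached 2-fold, against 4.35% of all genes, and none reached 1.5-fold in either direction, against 4.02% higher and 7.53% lower. Of 10481 protein-coding genes tested, 20 were 2-fold higher and 46 lower, and 1.92% and 2.74% were 1.5-fold higher and lower. The counting interval of the ratio lay above 1 for 19 members (24.7%, all genes 28.2%) and below 1 for 12 (15.6%, all genes 22.4%). The shares of the members were thus below those of all genes in both directions. For protein-coding genes they were 34.5% above 1 and 23.2% below 1. Such an interval depends on the number of reads. The members are short, with a median length of 2502 bp against 4980 bp for the protein-coding genes tested, and this was not allowed for.

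The largest log2 fold changes at 24 h were those of MRPL10, MRPL16, MRPS6, MRPL54 and MRPL30. MRPL10 (chr17:47823272-47831534 on hg38, minus strand), which anchors the stalk that recruits translation factors, had 24.6 FPKM with DMSO and 35.0 with melatonin, a ratio of 1.42 [1.33 to 1.53]. MRPL16, near the catalytic centre of the large subunit, had 8.16 and 11.4, a ratio of 1.40 [1.22 to 1.61]. MRPS6, a small subunit protein at low level, had 1.48 and 2.11, a ratio of 1.42 [1.12 to 1.81]. The intervals of these ratios overlap one another, so their order is not resolved. MRPL54, specific to mitochondria, had 11.02 and 14.01 FPKM (ratio 1.27 [1.06 to 1.53]), and MRPL30 had 12.5 and 15.7 (ratio 1.26 [1.14 to 1.40]). Of the MANE Select transcript of MRPS6, 33.1% overlaps exons of other genes on the same strand, so its level is uncertain.

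Members with the lowest log2 fold changes at 24 h were MRPL23, MRPS28, MRPL33, MRPL18 and MRPS18B. MRPL23, at the tunnel exit, had 7.03 FPKM with DMSO and 5.57 with melatonin, a ratio of 0.792 [0.682 to 0.919]. MRPS28, which takes the place of a bacterial small subunit protein, had 8.12 and 6.57 (ratio 0.808 [0.677 to 0.965]). MRPL33 had 18.1 and 14.9 FPKM (ratio 0.825 [0.726 to 0.938]). MRPL18, a protein of the central protuberance, had 38.6 and 33.1 FPKM (ratio 0.858 [0.783 to 0.94]), and MRPS18B had 30.6 and 26.5 (ratio 0.866 [0.793 to 0.945]). All 5 were thus lower with melatonin by these intervals, each by less than 1.5-fold. Of the MANE Select transcript of MRPS28, 56.2% overlaps exons of another gene on the same strand, so its level is uncertain.

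At 48 h the spread around 0 was wider, for all genes as well as for the members. The quartiles of the members were -0.10 and 0.11 at 24 h and -0.13 and 0.21 at 48 h. Those of all genes were -0.18 and 0.20 at 24 h and -0.28 and 0.25 at 48 h. The median log2 fold change of the members was 0.05, against -0.02 for all 13805 genes tested, and the members ranged from -0.40 to 0.77, with 43 above 0 and 34 below. None reached 2-fold (all genes 5.72%). At 1.5-fold, 2 were higher, MRPL17 and MRPL10 (2.60%, all genes 8.62%), and none was lower (all genes 10.0%). Of 10582 protein-coding genes tested, 109 were 2-fold higher and 144 lower, and 6.78% and 6.36% were 1.5-fold higher and lower. The counting interval lay above 1 for 25 members (32.5%, all genes 29.1%) and below 1 for 18 (23.4%, all genes 33.1%). For protein-coding genes these shares were 33.95% above and 36.5% below.

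MRPL17, a protein beside the tunnel exit, had 6.75 FPKM with DMSO at 48 h and 12.2 with melatonin, a ratio of 1.80 [1.58 to 2.07]. At 24 h it had 12.9 and 15.3, a ratio of 1.18 [1.05 to 1.32]. Its level with DMSO at 48 h was thus the low value among the 4, and melatonin at 48 h stood near the libraries of 24 h. MRPL10 had 27.7 and 44.2 FPKM at 48 h, a ratio of 1.59 [1.5 to 1.7], and here it was the melatonin libraries of both times that were high. MRPL12, which is bound by MRPL10 in the stalk, had 21.0, 23.0, 13.6 and 17.2 FPKM, with a ratio of 1.26 [1.09 to 1.47] at 48 h and of 1.09 [0.954 to 1.25] at 24 h. MRPL11, at the base of the stalk, had 16.9, 17.0, 10.3 and 11.8 FPKM, with a ratio of 1.15 [1.02 to 1.28] at 48 h and of 1.01 [0.914 to 1.11] at 24 h. The transcripts of these stalk proteins were each higher with melatonin at 48 h by these intervals, by different amounts, as were 29.1% of all genes. For MRPL11 and MRPL12, unlike MRPL10, DMSO at 48 h was the lowest library. Of the exonic length of MRPL12, 69.5% overlaps another gene on the same strand, so its level is uncertain.

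MRPL24 (chr1:156737303-156741590, minus strand), another protein of the tunnel exit, had 14.6, 13.1, 6.94 and 10.1 FPKM, with a ratio of 1.45 [1.24 to 1.71] at 48 h. Both libraries of 24 h were above both of 48 h for this gene, and DMSO at 48 h was lowest. MRPS33, a small subunit protein specific to mitochondria, had 4.35, 5.02, 3.67 and 5.59 FPKM, with ratios of 1.16 [1.01 to 1.32] at 24 h and 1.52 [1.34 to 1.72] at 48 h. MRPL58, which releases peptides from stalled ribosomes and is also a stable part of the large subunit, had 18.6, 18.0, 13.0 and 17.6 FPKM. Its ratio was 0.967 [0.839 to 1.12] at 24 h and 1.35 [1.17 to 1.57] at 48 h, and DMSO at 48 h was again the low library. MRPL30 had 9.54 and 12.8 FPKM at 48 h, a ratio of 1.34 [1.21 to 1.49], which is close to its ratio of 1.26 at 24 h.

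In the other direction at 48 h stood MRPL53, MRPL18, MRPL44, MRPS23 and MRPL32. MRPL53 had 3.73 FPKM with DMSO and 2.58 with melatonin from 110 and 77 reads, a ratio of 0.691 [0.510 to 0.933]. This ratio is the least precise of the 5, and 72.9% of the exonic length of MRPL53 overlaps CCDC142 on the same strand. For its MANE Select transcript the overlap is 99.2%, so the level of MRPL53 is uncertain. MRPL18 had 34.3 and 26.7 FPKM, a ratio of 0.778 [0.709 to 0.853], and melatonin was the lower library of the pair at both times. MRPL44, which has the fold of an RNA-cleaving enzyme, had 24.3 and 19.1 FPKM (ratio 0.788 [0.715 to 0.869]). At 24 h it had 19.8 and 19.5, so that DMSO at 48 h was its high library. MRPS23 had 10.0 and 8.08 FPKM (ratio 0.805 [0.744 to 0.871]), and MRPL32, which a protease of the inner membrane cuts on import, had 11.1 and 9.30 (ratio 0.835 [0.756 to 0.923]).

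**Figure D2:**
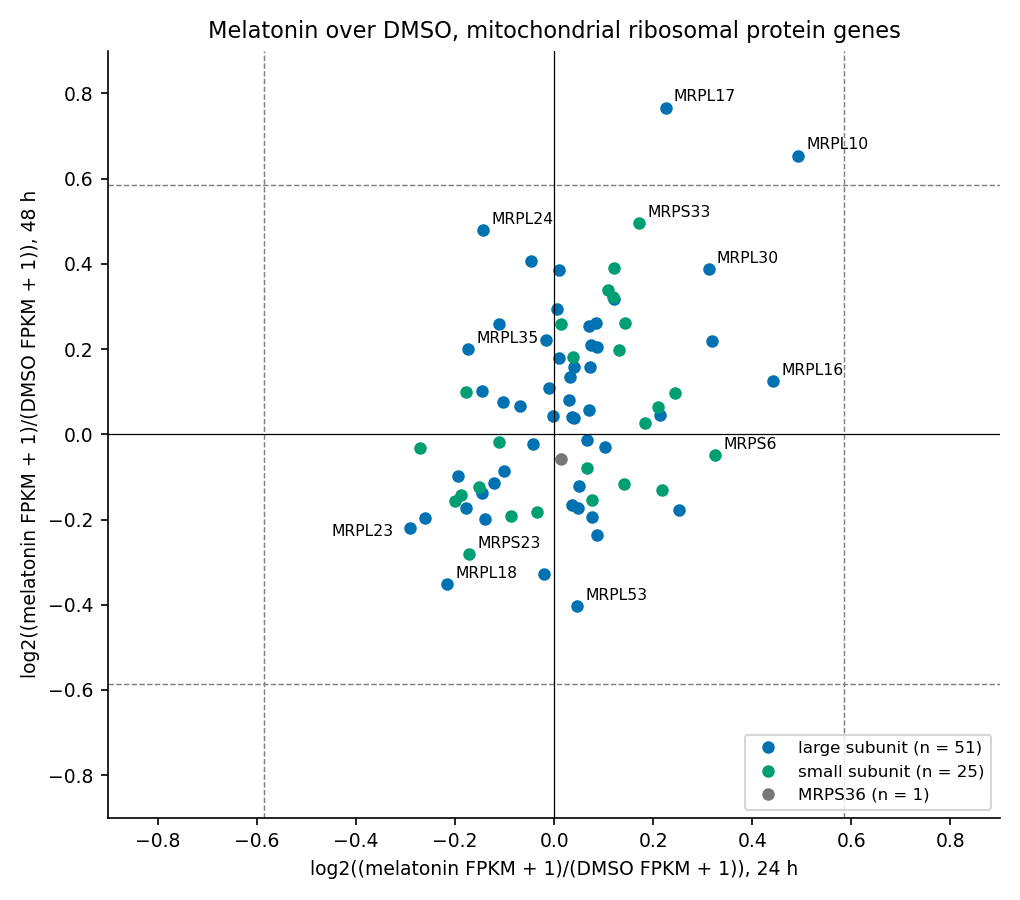
Log2 fold change with melatonin at 24 h (horizontal) and 48 h (vertical), on the FPKM + 1 scale, of the 77 members tested. Each point is a gene coloured by subunit, and dashed lines mark 1.5-fold. MRPL17 and MRPL10 are the only points beyond a dashed line, at 0.77 and 0.65 at 48 h.

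The comparisons at 24 h and at 48 h share no library. The counting interval lay above 1 at both times for 9 members, MRPL10, MRPL17, MRPL30, MRPL37, MRPS7, MRPS16, MRPS25, MRPS26 and MRPS33, which is 11.7% of the members, against 16.8% of the genes tested at both times. It lay below 1 at both times for 8 members, MRPL3, MRPL18, MRPL23, MRPL33, MRPL50, MRPS18B, MRPS23 and MRPS34, which is 10.4% against 14.8%. No member was higher at 24 h and lower at 48 h (all genes 4.85%), and 1, MRPL35, was lower at 24 h and higher at 48 h (1.30%, all genes 2.37%). Each of these shares was below that of all genes. The members are short and so have fewer reads at a given FPKM, which was not allowed for here. Except for MRPL10 and MRPL17 the ratios at both times lay between 0.778 and 1.52 for the members named here.

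Several abundant members were in these groups with small ratios. MRPS26 had ratios of 1.09 [1.01 to 1.17] and 1.25 [1.16 to 1.36] at 24 h and 48 h, and MRPS34 had 0.876 [0.810 to 0.947] and 0.904 [0.829 to 0.986]. MRPS16, which has a bacterial counterpart, had 30.4, 33.4, 23.0 and 26.5 FPKM, with ratios of 1.10 and 1.15. MRPL3, near the catalytic centre, had 33.1, 29.8, 25.9 and 23.4 FPKM, with ratios of 0.901 and 0.906. Transcripts for proteins of the same particle thus lay on either side of a ratio of 1 with melatonin, in both subunits.

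**Figure D3:**
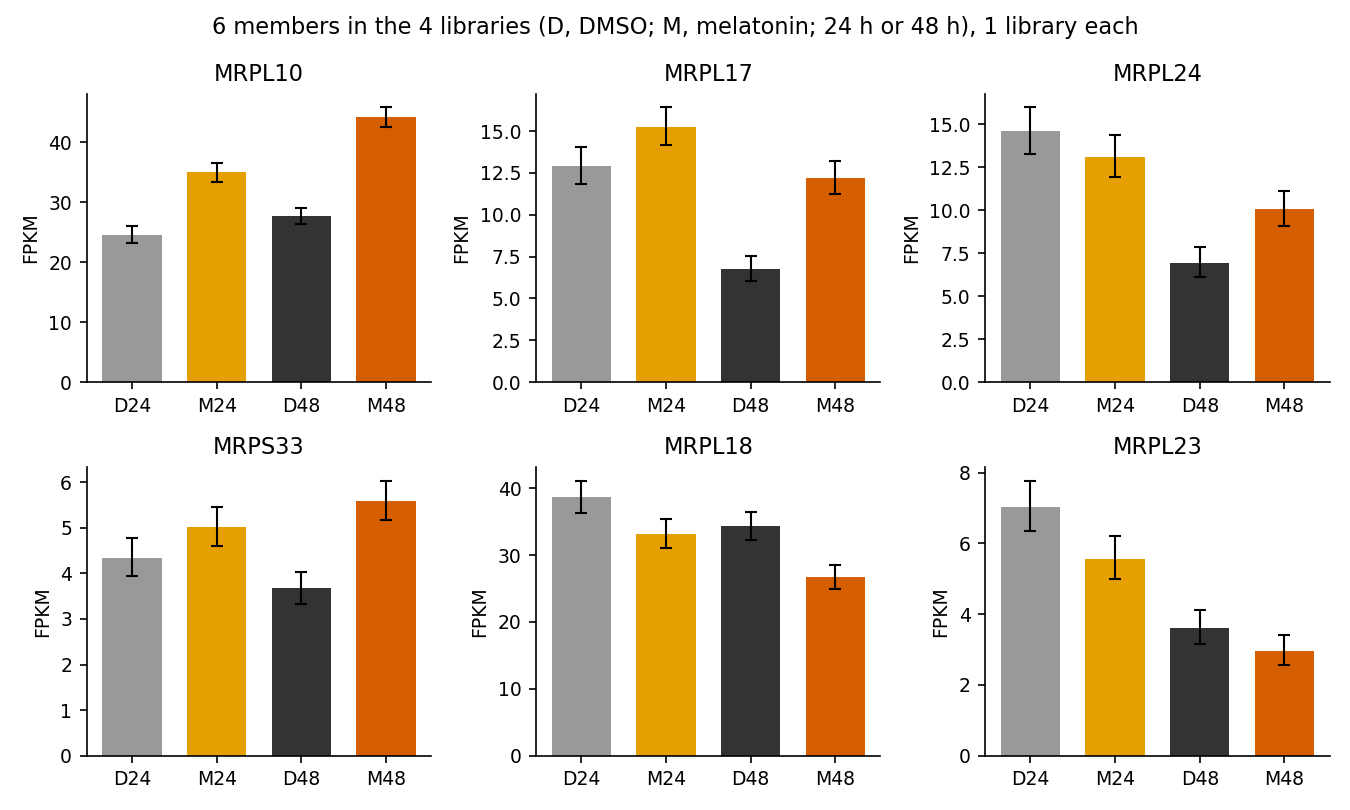
FPKM of MRPL10, MRPL17, MRPL24, MRPS33, MRPL18 and MRPL23 in each library (D for DMSO, M for melatonin, at 24 or 48 h), 1 bar per library with its 95% counting interval. MRPL10 is higher in both melatonin libraries (35.0 and 44.2), MRPL17 and MRPL24 are lowest with DMSO at 48 h (6.75 and 6.94), and MRPL23 is lower at 48 h with either treatment (3.62 and 2.97).

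MRPS18A, MRPS18B and MRPS18C are paralogs of the same bacterial-type family whose products occupy different places, the A form in the large subunit and the others in the small subunit. MRPS18C, which takes the place of the bacterial protein, is counted here as having a bacterial counterpart, and the other forms, whose places are found only in mitochondria, as mitochondria-specific. MRPS18A had 20.9, 19.4, 15.5 and 16.4 FPKM, MRPS18B had 30.6, 26.5, 32.6 and 29.2, and MRPS18C had 4.48, 3.93, 3.61 and 3.23. MRPS18B was the highest and MRPS18C the lowest of the 3 in each library. With melatonin at 48 h their ratios were 1.06 [0.926 to 1.21], 0.895 [0.827 to 0.967] and 0.895 [0.772 to 1.04]. MRPS30, of the large subunit, had 7.62, 8.06, 5.999 and 6.81 FPKM, with a ratio of 1.14 [1.03 to 1.25] at 48 h. MRPS36 had 11.3, 11.4, 13.0 and 12.4 FPKM, and both of its ratios with melatonin had intervals that held 1 (1.01 [0.866 to 1.18] and 0.958 [0.836 to 1.10]).

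By subunit, the median log2 fold change at 24 h was 0.03 for the 51 large and 0.08 for the 25 small subunit genes tested, and at 48 h it was 0.07 and -0.02. The small subunit median at 48 h changed sign with the library size used, being 0.03 when only nuclear reads were counted and -0.07 with TPM, so it gives no direction. The intervals lay above 1 at 48 h for 17 large and 8 small subunit genes, and below 1 for 12 and 6. As shares these are 33.3% and 32.0% above (all genes 29.1%) and 23.5% and 24.0% below (all genes 33.1%). At 24 h the intervals lay above 1 for 9 large (17.6%) and 10 small subunit genes (40.0%, all genes 28.2%), and below 1 for 8 (15.7%) and 4 (16.0%, all genes 22.4%). The difference between the subunits was not tested.

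The question of time was taken up next, as each treatment was sampled at 24 h and 48 h. With DMSO, the members had a median log2 fold change of -0.17 from 24 h to 48 h, and all 13854 genes tested had one of 0.004. Of the members, 23 were above 0 and 54 below, in a range of -0.97 to 0.46. None reached 2-fold (all genes 7.74%). At 1.5-fold none was higher (all genes 11.2%) and 9 were lower (11.7%, all genes 12.6%). Of these 9, 8 code for the large subunit, which makes up 51 of the 77 members tested. The counting interval lay above 1 for 12 members (15.6%, all genes 32.5%) and below 1 for 40 (51.9%, all genes 32.1%). For protein-coding genes these shares were 35.37% above and 38.05% below. Of 10539 such genes tested, 174 were 2-fold higher and 293 lower, and 7.68% and 10.7% were 1.5-fold higher and lower.

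With melatonin, a pair of other libraries gave a median of -0.16 for the members and of -0.04 for all 13489 genes tested, with 24 members above 0 and 53 below. None reached 2-fold (all genes 4.15%), none was 1.5-fold higher (all genes 6.76%) and 1, MRPL23, was 1.5-fold lower (1.30%, all genes 6.05%). The counting interval lay above 1 for 9 members (11.7%, all genes 22.4%) and below 1 for 39 (50.6%, all genes 32.8%). For protein-coding genes these shares were 22.7% above and 39.8% below. Of 10492 such genes tested, 52 were 2-fold higher and 45 lower, and 2.48% and 4.28% were 1.5-fold higher and lower. The time comparisons share their libraries with the melatonin comparisons, so neither is independent of the other.

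The direction in time depends on the library size used. When FPKM was rescaled to TPM, which has the same sum in every library, the median of all genes itself moved up by 0.46 with DMSO and by 0.27 with melatonin, and the members then had medians of 0.33 and 0.095, with 64 of 77 above 0 for DMSO. When the library size was the summed reads on genes, the members had medians of -0.01 and -0.04, against 0.14 and 0.08 for all genes. Relative to all genes, the median of the members was lower by 0.17 with DMSO and by 0.12 with melatonin as deposited, by 0.13 and 0.14 with TPM, and by 0.15 and 0.11 with the sum of reads. Against protein-coding genes only, the difference was -0.15 with DMSO and -0.093 with melatonin. At a minimum of 5 FPKM it was -0.19 and -0.084 relative to all genes. The share of reads on mitochondrial genes, given above, moved with time too, and its part in the result was not tested. Among nuclear reads alone, the members took 0.330% (DMSO) and 0.338% (melatonin) at 24 h, and 0.287% and 0.316% at 48 h.

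DMSO at 48 h was the library of lowest FPKM for 38 of the 77 members (49.4%), against 31.0% of all genes tested and 34.5% of protein-coding genes. Melatonin at 24 h was the highest for 31 members (40.3%), against 26.4% and 30.2%. For the large subunit the lowest library was DMSO at 48 h in 28 of 51 genes, and for the small subunit in 10 of 25. These ranks, like those given for single genes, are of FPKM as deposited and depend on the library size used. With TPM, 64 of the 77 members were higher at 48 h than at 24 h with DMSO.

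The members that were lowest relative to 24 h with DMSO were MRPL24, MRPL17, MRPL23, MRPL28 and MRPL37, and each had a bacterial counterpart except MRPL37. MRPL24 had 14.6 and 6.94 FPKM, a ratio of 0.476 [0.407 to 0.555], and with melatonin 13.1 and 10.1, a ratio of 0.768 [0.668 to 0.882]. MRPL17 had a ratio of 0.523 [0.455 to 0.601] with DMSO and of 0.799 [0.716 to 0.892] with melatonin. MRPL23 had 7.03 and 3.62 FPKM with DMSO and 5.57 and 2.97 with melatonin, ratios of 0.514 [0.436 to 0.607] and 0.533 [0.445 to 0.637]. MRPL23 thus had like ratios under both treatments, while the intervals of MRPL24 and MRPL17 do not overlap between the treatments. MRPL28 had 21.9, 20.2, 12.7 and 15.4 FPKM (ratios 0.580 [0.525 to 0.641] and 0.762 [0.694 to 0.836]). The ratios of MRPL37 were 0.616 [0.584 to 0.651] with DMSO and 0.702 [0.668 to 0.737] with melatonin. This gene had 2321 to 3661 reads per library.

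Other members low at 48 h with melatonin were MRPS22, MRPL11 and MRPS34. MRPS22, specific to mitochondria, had 5.53, 6.59, 4.69 and 4.2 FPKM, a ratio in time of 0.849 [0.753 to 0.958] with DMSO and of 0.638 [0.568 to 0.716] with melatonin. MRPL11 had ratios of 0.608 [0.545 to 0.678] and 0.691 [0.623 to 0.765]. MRPS34 had ratios of 0.703 [0.648 to 0.762] and 0.726 [0.667 to 0.789]. MRPL10, which was higher with melatonin, was also higher at 48 h than at 24 h, with ratios of 1.13 [1.05 to 1.21] and 1.26 [1.19 to 1.34].

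Fewer members were higher at 48 h. MRPS31, specific to mitochondria, had 6.82, 7.20, 9.72 and 9.16 FPKM, with ratios in time of 1.43 [1.22 to 1.67] with DMSO and 1.27 [1.10 to 1.48] with melatonin. Its pseudogenes MRPS31P4 and MRPS31P5 were listed at 0.687 to 1.91 FPKM and could share its reads. MRPL33 had 18.1 and 22.2 FPKM with DMSO and 14.9 and 19.2 with melatonin, ratios of 1.23 [1.10 to 1.38] and 1.29 [1.14 to 1.46]. MRPL34 had 13.7, 11.9, 15.8 and 14.7 FPKM (ratios 1.15 [1.02 to 1.31] and 1.24 [1.09 to 1.42]). These 3 were high in both libraries of 48 h. MRPS21, with 18.6, 18.8, 19.7 and 23.8 FPKM, had a ratio of 1.27 [1.14 to 1.41] with melatonin, and its interval with DMSO held 1 (1.06 [0.949 to 1.19]). The low genes MRPS6 and MRPL38 had ratios of 1.6 [1.28 to 2.02] and 1.69 [1.25 to 2.29] with DMSO, where DMSO at 24 h was their lowest library. With melatonin their ratios were 1.07 [0.877 to 1.31] and 1.00 [0.761 to 1.32].

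The large subunit genes with a bacterial counterpart stood lowest in time. Their median log2 fold change was -0.25 with DMSO and -0.28 with melatonin, with 24 and 25 of 30 below 0. The 21 mitochondria-specific genes of the large subunit had medians of -0.06 and -0.04. In the small subunit the medians were -0.09 and -0.18 for genes with a bacterial counterpart and -0.10 and -0.01 for those without. The ranges of all these classes overlapped widely.

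**Figure D4:**
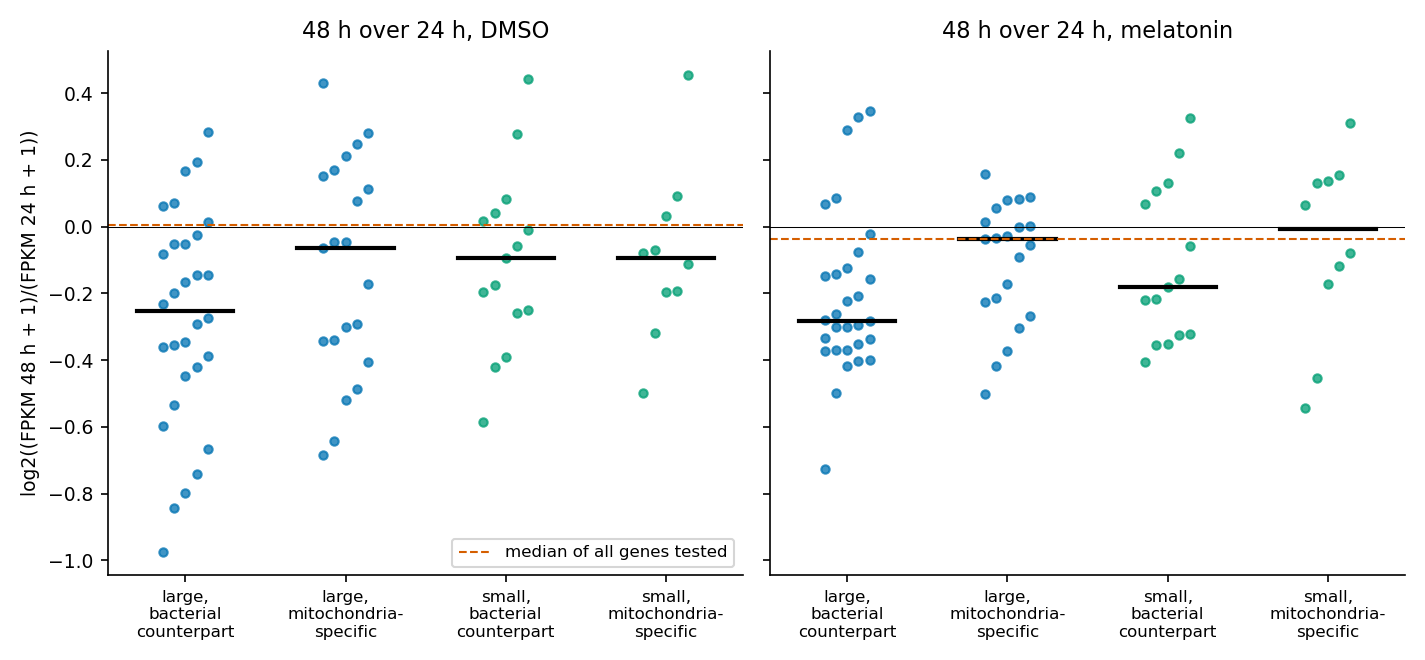
Log2 fold change from 24 h to 48 h, on the FPKM + 1 scale, with DMSO (left) and with melatonin (right), for members of the large and small subunit with and without a bacterial counterpart. Each point is a gene, the black bar is the median of its class, and the dashed line is the median of all genes tested. Bacterial-type genes of the large subunit have the lowest medians, at -0.25 and -0.28.

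The rRNAs that these proteins bind carry short poly(A) tails and were also read in these libraries. MT-RNR1 had 5597 and 5540 FPKM at 24 h and 3219 and 4316 at 48 h. MT-RNR2 had 21567 and 17206 at 24 h and 10170 and 11030 at 48 h. Both were lower at 48 h than at 24 h under either treatment. The 13 mRNAs that the ribosome translates had a median log2 fold change with melatonin of -0.40 at 24 h, where all 13 were lower, and of 0.19 at 48 h, where 11 were higher. From 24 h to 48 h their median was -1.28 with DMSO and -0.72 with melatonin, and all 13 were lower in each case. Members had medians of -0.17 and -0.16 in the same comparisons, which is smaller than for the mRNAs of the mitochondrial genome.

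Among other ribosomal and respiratory genes, the 82 cytoplasmic ribosomal protein genes had median log2 fold changes with melatonin of 0.04 and -0.02 at 24 h and 48 h, and in time of 0.23 with DMSO and 0.20 with melatonin. In time 71 and 74 of these 82 were above 0, whereas 23 and 24 of the 77 members were (all genes 50.3% and 45.1%). With TPM the sign of the members' medians turns, as given above. The nuclear genes of respiratory chain subunits, of which 75 to 76 were tested, had medians of -0.04 and 0.07 with melatonin and of -0.19 and -0.06 in time.

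**Figure D5:**
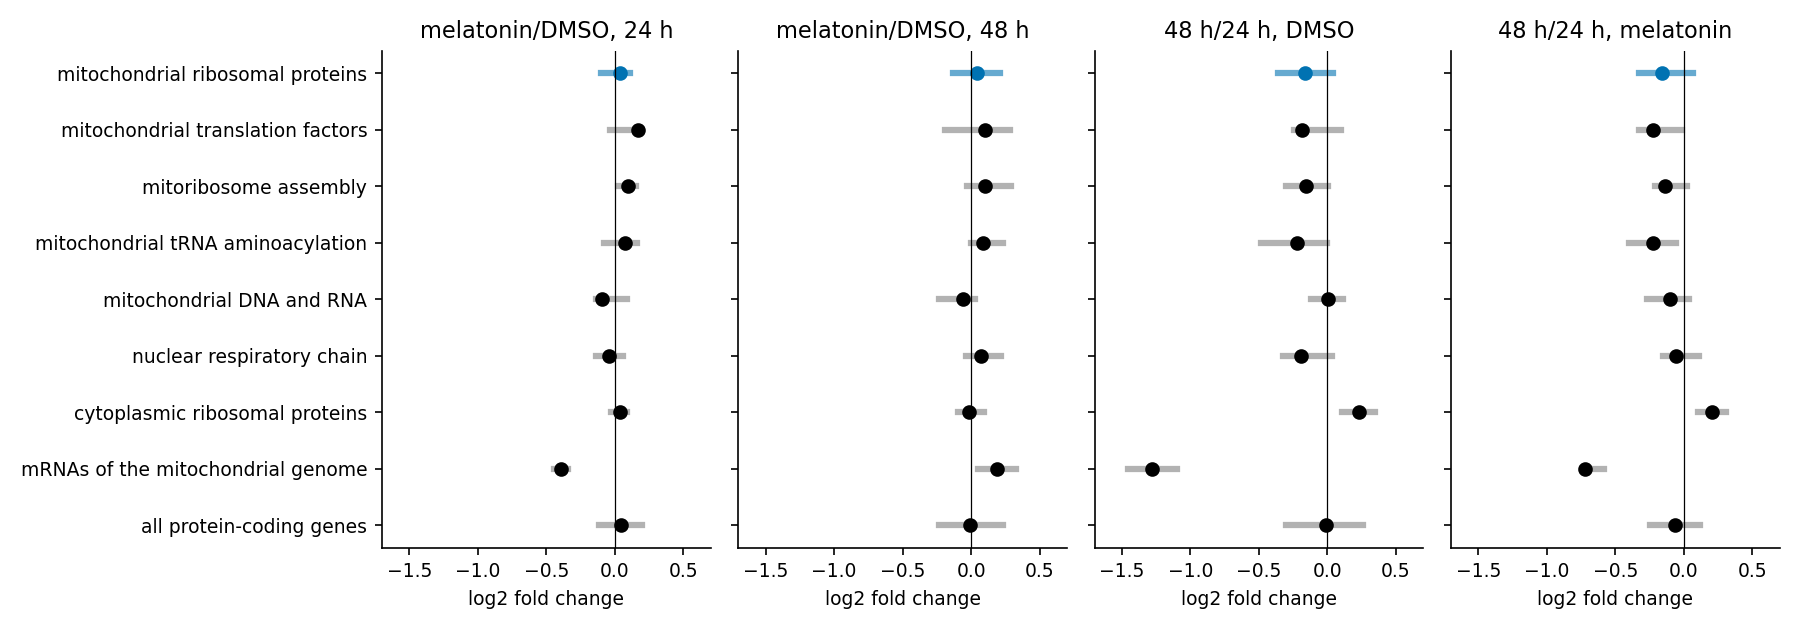
Median (point) and interquartile range (bar) of the log2 fold change on the FPKM + 1 scale, for the mitochondrial ribosomal protein genes, other gene lists of mitochondrial translation and respiration, cytoplasmic ribosomal proteins and all protein-coding genes, in the 4 comparisons. With melatonin the members lie near 0 (0.04 and 0.05), and in time they lie at -0.17 and -0.16 while the cytoplasmic ribosomal proteins lie at 0.23 and 0.20. In time, translation factors (-0.19 and -0.23), assembly (-0.16 and -0.14) and tRNA aminoacylation (-0.22 and -0.23) also lie below 0.

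The other genes of mitochondrial translation were read from lists of known factors. From 24 h to 48 h, several of these lists had medians like those of the members. With DMSO and with melatonin they were -0.19 and -0.23 for translation factors and -0.16 and -0.14 for assembly factors. Genes for charging tRNAs had -0.22 and -0.23, whereas genes of mitochondrial DNA and RNA had 0.002 and -0.10. The 5 mitoribosome proteins of other names had medians with melatonin of -0.07 at 24 h and -0.12 at 48 h, with intervals at 48 h above 1 for none and below 1 for 3. The shares of all genes with such intervals at 48 h, against which this and the following counts are to be read, were 29.1% above 1 and 33.1% below 1. DAP3, a GTP-binding protein of the small subunit, had 16.5, 19.0, 18.9 and 17.2 FPKM, and CHCHD1 had 12.8, 10.2, 12.6 and 10.3. DAP3 was higher with melatonin at 24 h and lower at 48 h by its intervals (ratios 1.15 [1.07 to 1.24] and 0.908 [0.851 to 0.970]). CHCHD1 was lower at both times (0.796 [0.680 to 0.931] and 0.821 [0.708 to 0.95]). AURKAIP1 had ratios of 0.919 and 0.94, and GADD45GIP1 had 0.953 and 1.05.

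Of 26 assembly factors, the intervals at 48 h lay above 1 for 12 (46.2%) and below 1 for 4 (15.4%), with a median log2 fold change of 0.10. MRM2, which methylates the rRNA of the large subunit, had 11.1, 13.1, 7.39 and 10.9 FPKM (ratio 1.48 [1.31 to 1.66] at 48 h), and MPV17L2, an inner membrane protein needed for assembly, had 5.79, 8.59, 5.11 and 7.40 (ratio 1.45 [1.23 to 1.72]). TFB1M, which methylates the rRNA of the small subunit, had 17.0, 14.4, 14.4 and 10.1 FPKM (ratio 0.698 [0.629 to 0.776]), and the GTPase NOA1 had 11.8, 13.2, 16.1 and 13.8 (ratio 0.855 [0.786 to 0.930]). MRM2 and TFB1M thus differed in direction at 48 h, while the intervals of NSUN4, another methyltransferase of the small subunit rRNA, and of MRM3, one of the large subunit rRNA, held 1 (ratios 1.06 [0.947 to 1.18] and 1.20 [0.987 to 1.45]).

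Of 15 translation factors, the intervals at 48 h lay above 1 for 6 (40.0%) and below 1 for 5 (33.3%), with a median of 0.10. OXA1L, which inserts new proteins into the inner membrane and docks at the tunnel exit, had 55.3, 65.3, 66.9 and 88.7 FPKM (ratio 1.33 [1.28 to 1.37]). MTFMT, which formylates the initiator tRNA, had a ratio of 1.34 [1.11 to 1.61]. The release factor MTRF1 had a ratio of 0.690 [0.588 to 0.809], and LETM1, an ion transporter of the inner membrane, had one of 0.762 [0.714 to 0.813].

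Of 22 genes for charging mitochondrial tRNAs, which are aminoacyl-tRNA synthetases and the amidotransferase subunits GATB, GATC and QRSL1, the intervals at 48 h lay above 1 for 9 (40.9%) and below 1 for 4 (18.2%), with a median of 0.09. AARS2, the alanine enzyme, had 11.7, 12.6, 4.52 and 9.21 FPKM, a ratio of 2.04 [1.81 to 2.29], and PARS2, the proline enzyme, had 2.88, 4.01, 1.92 and 3.78, a ratio of 1.97 [1.54 to 2.53]. For AARS2 it was DMSO at 48 h that stood low, as for MRPL17 and MRPL24. GARS, which serves cytoplasm and mitochondria, had 35.8, 44.3, 51.3 and 33.4 FPKM (ratio 0.650 [0.621 to 0.681]), and YARS2 had a ratio of 0.861 [0.764 to 0.972]. Of 19 genes of mitochondrial DNA maintenance, transcription and RNA processing, the intervals at 48 h lay above 1 for 2 (10.5%) and below 1 for 8 (42.1%), with a median of -0.06. TEFM and POLG2 had ratios of 1.29 [0.983 to 1.69] and 1.18 [1.06 to 1.31]. KIAA0391, part of the enzyme that trims mitochondrial tRNAs, had 2.44, 1.73, 4.02 and 1.81 FPKM (ratio 0.451 [0.391 to 0.520]), and TFB2M, a subunit of the transcription initiation complex, had a ratio of 0.741 [0.665 to 0.826].

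Of the 12 listed regulators of nuclear genes for mitochondria, 11 were tested, and the intervals with melatonin at 48 h lay above 1 for 2 (18.2%, all genes 29.1%) and below 1 for 7 (63.6%, all genes 33.1%). PPARGC1A, a coactivator of mitochondrial biogenesis, had 2.41, 5.54, 6.53 and 9.44 FPKM, with ratios with melatonin of 2.30 [2.07 to 2.56] at 24 h and 1.45 [1.36 to 1.54] at 48 h. It was higher with melatonin than with DMSO at each time, and higher at 48 h than at 24 h under each treatment. YY1 had 14.4, 10.8, 16.5 and 10.3 FPKM, with ratios of 0.752 [0.707 to 0.799] and 0.621 [0.587 to 0.658], so both melatonin libraries were low. NRF1 had 4.91, 4.37, 3.45 and 3.47 FPKM, and GABPA and GABPB1, the subunits of GABP, had 3.25, 3.10, 4.33 and 3.67 and 2.60, 2.65, 2.44 and 2.65. The intervals of NRF1 and GABPB1 with melatonin held 1 at both times, and GABPA had a ratio of 0.848 [0.745 to 0.965] at 48 h.

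Among the remaining regulators, MYC had 60.8, 70.2, 91.0 and 63.6 FPKM and ATF4, a factor of the stress response, had 104, 167, 241 and 179. Both were higher with melatonin at 24 h (ratios 1.16 [1.10 to 1.21] and 1.61 [1.55 to 1.67]) and lower at 48 h (0.699 [0.672 to 0.728] and 0.744 [0.725 to 0.764]). TFEB had 2.29, 2.51, 4.92 and 2.77 FPKM, ESRRA had 19.0, 18.1, 29.9 and 22.0, and PPRC1 had 16.4, 15.4, 17.9 and 13.0. These 3 had intervals below 1 at 48 h, with ratios of 0.562 [0.491 to 0.642], 0.737 [0.688 to 0.788] and 0.728 [0.684 to 0.774]. ATF5 had ratios of 1.45 [1.26 to 1.66] and 1.20 [1.07 to 1.35], and PPARGC1B was below 1 FPKM in each library.

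Members with and without each promoter motif were set side by side, since the factors that bind these motifs are among the regulators. The 19 members tested that have a YY1 core in the promoter window had a median log2 fold change at 48 h of 0.03, and the 49 without it had one of 0.06. The 29 with an ETS motif had one of 0.08, and the 39 without it one of -0.01. For the 6 with an NRF1 core it was -0.14, in a range of -0.24 to 0.77, and for the 62 without it 0.06. The ranges overlapped in each case.

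Many of these genes share a promoter region with a neighbour. Pairs were counted where a protein-coding gene on the opposite strand started within the 1000 bases before the MANE Select start of a gene. This held for 26 of the 78 members (33.3%), against 1778 of 19061 protein-coding genes (9.33%). Non-coding neighbours and starts that lie inside the gene were not counted. The neighbours include other genes of mitochondria. MRPS12, of the decoding centre, starts 181 bases from SARS2, a mitochondrial tRNA synthetase, MRPL43 starts 46 bases from TWNK, the helicase of mitochondrial DNA, and MRPL47 starts 156 bases from NDUFB5, a respiratory chain subunit. At 48 h the log2 fold changes were 0.26 and 0.35 for MRPS12 and SARS2, 0.04 and -0.36 for MRPL43 and TWNK, and 0.07 and 0.36 for MRPL47 and NDUFB5. MRPL27 and EME1, a DNA repair nuclease subunit, start 45 bases apart, and at 48 h their log2 fold changes were 0.16 and 1.44. EME1 had 1.12 FPKM with DMSO and 4.77 with melatonin, while MRPL27 had 10.7 and 12.02. MRPL18 and the chaperonin gene TCP1, 865 bases apart, had -0.35 and -0.06. Neighbours that start from the same region thus had log2 fold changes of unlike size in several pairs.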

How the data were processed

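The authors selected polyadenylated RNA and deposited FPKM per gene (unit FPKM, scaled to gene length and a library size) with the gene length, on hg38. Their methods name MapSplice 2.0.1.6 and Cufflinks, whereas the submitters' processing notes list Bowtie2 2.0.6, TopHat2 2.0.9, Cufflinks 2.1.1 and Cuffdiff 2.1.1. Neither the aligner nor the program that gave the deposited FPKM is therefore settled. How read counts were assigned to strand is not given in the sources used here, so overlaps on the opposite strand may matter too. They cover 50.9% of the exonic length of MRPS18A, 42.8% of MRPS22, 40.2% of MRPS18C and 31.2% of MRPS34. On the same strand, other genes also cover 43.35% of the MANE Select transcript of MRPS25. The product of FPKM and gene length fell on whole reads in 100% of values (tolerance 0.01 reads), so reads were recovered. The library sizes implied by the deposited FPKM were 0.849, 0.888, 0.950 and 0.973 of the summed reads (DMSO and melatonin at 24 h, then at 48 h), and how that denominator was set is not stated. A 1 kb gene with 3 reads has 0.135 to 0.163 FPKM.

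Differences were log2 ratios of FPKM + 1 for genes of at least 1 FPKM in either library. Calls were at 2-fold and 1.5-fold, or by an exact conditional binomial interval (95%) of the ratio beyond 1. That interval compares a pair of libraries, not conditions. Intervals used the plain FPKM ratio. Scripts were tested on simulated data. Overlaps used GENCODE 44 and promoters RefSeq on GRCh38.p14, both hg38. The annotation release behind the files is not stated.

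Named genes were the 5 highest and 5 lowest members by mean FPKM and by each log2 fold change, the MRPS18 paralogs, MRPS36, MRPS30, MRPL10 and MRPL12, every regulator, and in each other list the 2 highest and 2 lowest at 48 h. Further members and pairs were chosen after their values were seen. Of the names in the lists, 7 had no match in the files. The members and lists were chosen with earlier results of these data known. Alternatives were a pseudocount of 0.1, no filter, a minimum of 5 FPKM, 1.5-fold, TPM, median centring, the sum of all or of nuclear reads, a correction for GC content and length, and protein-coding genes only. The work used Python 3.11.15, numpy 2.4.6, pandas 2.3.3, scipy 1.17.1 and matplotlib 3.10.9.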

Additional observations from a re-analysis of the deposited data

Results flagged for a closer look

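MRPL35, a large subunit protein with a bacterial counterpart, stood out because its ratio of melatonin to DMSO lay on opposite sides of 1 at the times sampled. The ratio was 0.877 [0.794 to 0.969] at 24 h and 1.17 [1.05 to 1.29] at 48 h. Its FPKM was 11.6 and 10.2 at 24 h and 8.22 and 9.59 at 48 h, from 690 to 815 reads. The difference between the times was not tested, since each condition has 1 library. Of all genes tested at both times, 2.37% showed the same pattern.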

How the results depend on the processing

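Melatonin and DMSO were compared within each time. Replicates could not be paired because each condition has 1 library and no replicate number, and for the same reason no replicate could be left out. A joint fit of treatment and time, which would have 1 residual degree of freedom and count any difference of the effect between times as error, was not run. The medians with melatonin and in time moved by less than the counting error of a single typical member (0.151 to 0.163 on the log2 scale) under all alternatives except TPM. That width is about as large as the medians in time (-0.17 and -0.16), so staying within it does not show that they held. With the sum of reads they were -0.01 with DMSO (38 members above 0 and 39 below) and -0.04 with melatonin (34 and 43). With TPM the members' median was 0.21 for melatonin at 24 h, 0.33 in time with DMSO, which turned its sign, and 0.095 in time with melatonin, and the median of all genes moved by 0.15, 0.46 and 0.27 in these comparisons. The count of members at 2-fold was 0 in every comparison and alternative, except 1 in time with DMSO at a pseudocount of 0.1. Taking 1.5-fold instead gave 2 for melatonin at 48 h, 9 in time with DMSO and 1 in time with melatonin, and 0 for melatonin at 24 h. For single named members, TPM moved 101 of 148 log2 fold changes beyond their counting error, a pseudocount of 0.1 moved 4 and the other scalings and filters moved none. Depth limits the low members most, since MRPS24 had 4 to 11 reads and MRPL38, MRPS17 and MRPL53 had 69 to 139, and no alternative measures the spread between cultures.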
